A study of Mus musculus with 4 samples.

Results

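The B-class ephrins and Eph receptors are a family of 8 mouse genes, the ligand genes Efnb1, Efnb2 and Efnb3 and the receptor genes Ephb1, Ephb2, Ephb3, Ephb4 and Ephb6. They were read, by gene symbol, in Flk-1 positive cells sorted by a reporter of the transcription factor Etv2. Of the 8 genes, 7 were measured among the 18193 genes of the array, with 12 probe sets between them, and Ephb2 was not analysed here. A probe set is a group of short probes for one transcript, and for each gene the probe set with the highest mean over the 4 arrays was kept while the others were read beside it.

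The groups were Flk-1 positive, Etv2-Venus positive cells (2 arrays) and Flk-1 positive, Etv2-Venus negative cells (2 arrays), numbered 1 and 2 in each. All were TT2 mouse embryonic stem cells, heterozygous for a Venus fluorescent protein knocked into Etv2, so both groups carried 1 reporter allele. Mesoderm was formed in culture on the OP9 stromal cell line; the sample labels give day 5, and the study's design text 4 to 5 days. Flk-1 is the VEGF receptor encoded by Kdr and is found on mesoderm with blood and vessel potential. Whether arrays 1 and 2 stand for separate cultures is not said in the labels, so p-values measure only how these arrays vary, possibly for technical reasons. Levels are RMA values in log2 units, and differences are Etv2-Venus positive minus negative, with the standard error (SE) or 95% interval of the limma fit.

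Ephrin-B ligands are transmembrane proteins that bind EphB receptor tyrosine kinases on neighbouring cells. Signals run both ways: forward through the receptor's kinase and reverse through the ligand's short tail, which is phosphorylated and ends in a PDZ-binding motif. The system sets boundaries between cell groups, as in somites, and in vessels ephrin-B2 marks arterial and EphB4 venous endothelium.

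The ligand genes Efnb1 and Efnb3 were lower in Etv2-Venus positive cells, at 0.665-fold and 0.666-fold of their level in Etv2-Venus negative cells, and the receptor gene Ephb3 was at 0.756-fold. Efnb2, the arterial ligand, was 1.14-fold higher on the kept probe set, with an interval that included 0. Its venous receptor gene Ephb4 differed by less than the spread between arrays. In limma 0 of the 7 genes reached an adjusted p under 0.05, as did 0 of all 18193 genes tested (0.0% higher and 0.0% lower). At an unadjusted p under 0.05, 3 of the 7 were lower and 0 higher, where 4.64% of all genes were lower and 7.07% higher.

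Promoters are shown for Efnb1 and Ephb3, which were lower in the positive cells, and for Efnb2, which was not, because Etv2 belongs to the ETS factors, which bind a GGAA core. Each runs 5′ to 3′ on the strand of the gene from 250 bases before to 50 bases after the annotated start, from RefSeq on GRCm38.p6. Capitals mark GGAA, or TTCC where the core is on the other strand. The windows are chrX:99135811-99136110 (plus strand) for Efnb1, chr8:8661193-8661492 (minus strand) for Efnb2 and chr16:21204545-21204844 (plus strand) for Ephb3.
Efnb1: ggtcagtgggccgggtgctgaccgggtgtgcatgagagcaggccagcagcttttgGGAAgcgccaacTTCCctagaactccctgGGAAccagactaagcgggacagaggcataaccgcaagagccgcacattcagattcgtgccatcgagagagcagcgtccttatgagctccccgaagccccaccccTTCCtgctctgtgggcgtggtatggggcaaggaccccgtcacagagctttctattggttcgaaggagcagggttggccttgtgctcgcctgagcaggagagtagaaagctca
Efnb2: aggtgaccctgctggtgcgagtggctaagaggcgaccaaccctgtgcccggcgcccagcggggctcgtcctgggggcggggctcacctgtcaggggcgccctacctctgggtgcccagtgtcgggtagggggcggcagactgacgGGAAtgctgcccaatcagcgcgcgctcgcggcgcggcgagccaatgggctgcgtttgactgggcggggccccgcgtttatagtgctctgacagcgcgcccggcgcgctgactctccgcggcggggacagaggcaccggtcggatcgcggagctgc
Ephb3: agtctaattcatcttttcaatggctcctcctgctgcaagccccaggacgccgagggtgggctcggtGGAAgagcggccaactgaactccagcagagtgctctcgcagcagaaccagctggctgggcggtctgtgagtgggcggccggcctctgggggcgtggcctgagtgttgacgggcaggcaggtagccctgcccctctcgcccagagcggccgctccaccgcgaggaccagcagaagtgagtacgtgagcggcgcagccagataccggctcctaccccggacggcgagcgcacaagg

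Efnb1 held 4 cores, at 195, 183, 166 and 62 bases before the start, while Efnb2 and Ephb3 held 1 each, at 105 and 184 bases before it. A GGAA core was found on either strand in 96.0% of 32851 promoter windows of this length, with a median of 3 per window. The longer ETS sequence CCGGAA was in none of the 3 printed windows, in 2 of the 7 windows of the family (Ephb2 and Ephb6) and in 14.9% of all windows. Of the windows not printed, Ephb4 held 4 cores, Ephb1 held 3, and Ephb2 and Ephb6 held 1 each. TGGGAA, a sequence bound by the Notch effector RBPJ that contains the GGAA core, occurred 2 times in the Efnb1 window, against 25.6% of all windows with at least 1 match. In Efnb1 these matches overlap 2 of its 4 cores. These are letter matches, and the files hold no binding data. Of the 8 genes 7 were matched in the promoter table, all but Efnb3.

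Among the ligands, Efnb1, an X-linked gene known from craniofacial and neural crest development, had values of 7.69 and 7.65 on the positive arrays and 8.24 and 8.27 on the negative arrays. Both positive arrays lay below both negative arrays, and arrays within a group differed far less than the groups did. The difference was -0.59 (SE 0.09, 95% interval -0.82 to -0.36, n = 2 arrays per group; limma adjusted p = 0.103). It was lower than that of all but 1.73% of the genes. The other 2 Efnb1 probe sets gave the same direction without overlap. The first measured 6.19 and 6.22 on the positive arrays against 6.93 and 6.58 on the negative arrays, a difference of -0.55 (SE 0.15). The second measured 5.42 and 5.88 on the positive arrays against 6.52 and 6.64 on the negative arrays, a difference of -0.93 (SE 0.19). Efnb1 was thus lower on each of its 3 probe sets, by between 0.55 and 0.93 log2 units.

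Efnb3, a ligand known for guiding axons at the midline, had values of 7.86 and 7.79 on the positive arrays and 8.52 and 8.30 on the negative arrays. The groups did not overlap on its only probe set. The difference of -0.59 (SE 0.11, interval -0.89 to -0.28) had a limma adjusted p of 0.152, and compared within array numbers it was -0.66 for number 1 and -0.51 for number 2.

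Efnb2, needed in the mouse for remodelling of the first vessels, had values of 10.82 and 11.00 on the positive arrays and 10.74 and 10.70 on the negative arrays. Both positive arrays lay above both negative arrays, but array 1 of the positive cells did so by little, and the difference of 0.19 (SE 0.10, interval -0.08 to 0.46) had a limma adjusted p of 0.585. The interval holds folds from 0.946 to 1.38, so a 2-fold difference in either direction lies outside it. A second bright Efnb2 probe set measured 10.23 and 10.29 on the positive arrays against 9.93 and 9.97 on the negative arrays, which was tighter within groups. Its difference was 0.30 (SE 0.09, interval 0.05 to 0.56; limma adjusted p = 0.454 over probe sets). The remaining 2 Efnb2 probe sets were dim, with means in both groups of at most 5.73, and differed by -0.03 (SE 0.14) and 0.19 (SE 0.12). The 4 probe sets of Efnb2 therefore did not all share a sign.

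**Figure D1:**
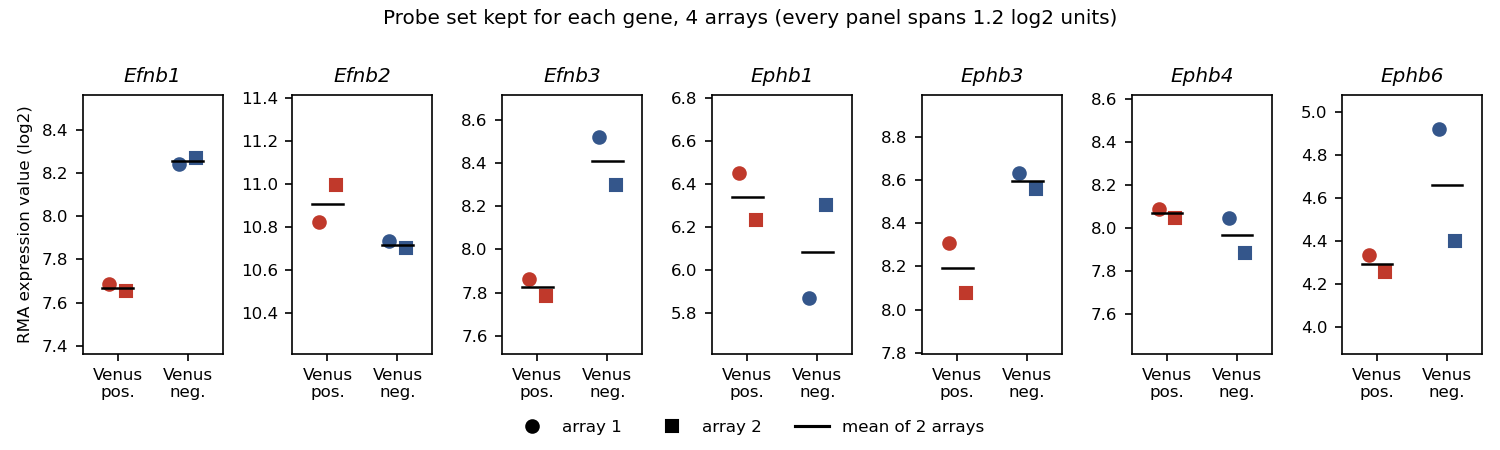
Values of the kept probe set of each measured gene on the 4 arrays. The vertical axes give RMA values in log2 units, with the same span but a centre of its own in each panel, with Etv2-Venus positive cells in red on the left and Etv2-Venus negative cells in blue on the right, circles for array 1, squares for array 2 and bars for means. Efnb1, Efnb3, Ephb3 and Ephb6 lie lower in the positive cells without overlap, Efnb2 lies higher, and Ephb1 and Ephb4 overlap.

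Among the receptors, Ephb3, which acts with EphB2 in axon guidance and in the placing of intestinal cells, had values of 8.31 and 8.08 on the positive arrays and 8.64 and 8.56 on the negative arrays. The groups did not overlap, although the positive arrays were 0.23 apart. The difference was -0.40 (SE 0.12, interval -0.71 to -0.10; limma adjusted p = 0.295).

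Ephb4, the receptor of venous endothelium and the main partner of ephrin-B2, had values of 8.09 and 8.05 on the positive arrays and 8.05 and 7.89 on the negative arrays. The arrays of the populations overlapped. The difference of 0.10 (SE 0.10, limma adjusted p = 0.815) had an interval from -0.17 to 0.37, or folds of 0.891 to 1.29. Its probe set is of a type that reads several transcripts of the same gene.

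Ephb1, a receptor known from retinal axon guidance, had values of 6.45 and 6.23 on the positive arrays and 5.87 and 6.30 on the negative arrays. The arrays overlapped, and the sign differed between array numbers, at 0.58 for number 1 and -0.07 for number 2. The fitted difference was 0.26 (SE 0.18, interval -0.22 to 0.73; limma adjusted p = 0.694), and without array 1 of the negative cells it was 0.04. Ephb6, a receptor whose kinase domain is inactive, had values of 4.33 and 4.26 on the positive arrays and 4.92 and 4.4 on the negative arrays, all below the array medians of 5.46 to 5.52. The groups did not overlap, but the gap rested mainly on array 1 of the negative cells. The difference of -0.37 (SE 0.19, interval -0.87 to 0.14; limma adjusted p = 0.574) was -0.10 without that array, and its size is uncertain at this signal.

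**Figure D2:**
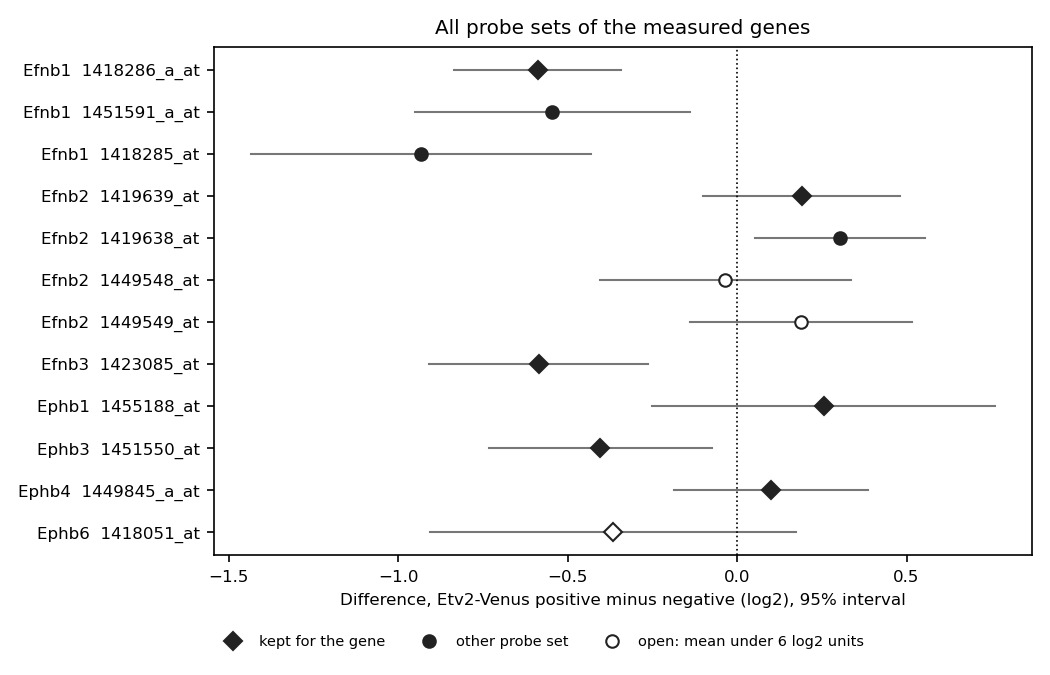
Differences on all 12 probe sets of the measured genes, in log2 units on the horizontal axis, with 95% intervals from the limma fit over every probe set (n = 2 arrays per group). Diamonds are the kept probe sets, circles the others and open symbols probe sets with a mean under 6. The 3 Efnb1 intervals lie below 0, and 1 of the 4 Efnb2 intervals lies above it.

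In all, 4 of the 7 genes lay below and 1 above the negative cells without overlapping arrays, where 17.0% of all genes did so in the lower and 22.4% in the higher direction. The median difference was -0.37 over the 7 genes, which is the value of the dim Ephb6, and 0.01 over all genes. For the 7 genes it was -0.33 within array number 1 and -0.14 within array number 2. In bulk RNA, fewer cells with a transcript and less transcript per cell cannot be told apart.

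**Figure D3:**
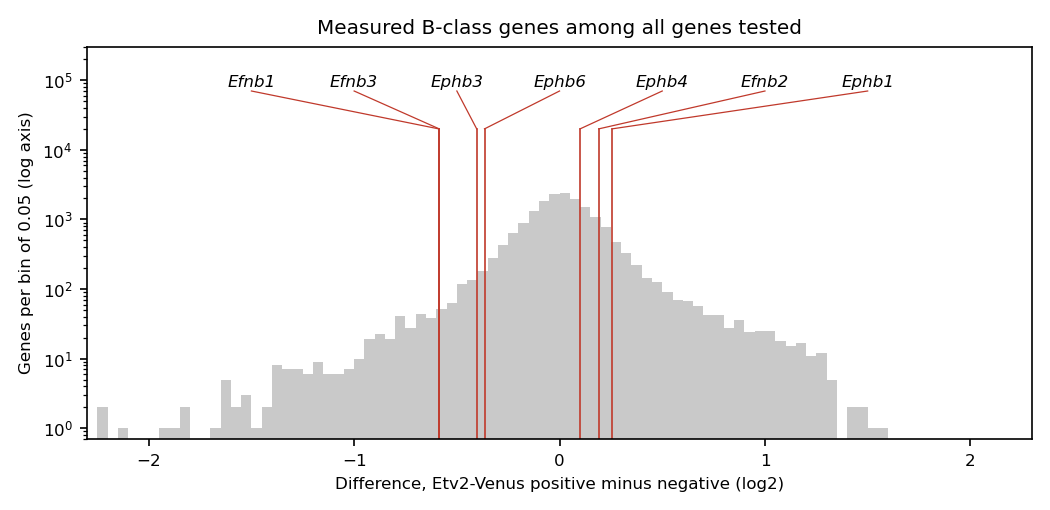
Distribution of the differences of all 18193 genes in bins of 0.05 log2 units (grey, number of genes on a log axis), with red lines at the 7 measured B-class genes. Efnb1 and Efnb3 share a position at -0.59 in the lower tail, and Efnb2, Ephb1 and Ephb4 lie between 0.10 and 0.26.

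The ratio of the arterial ligand to the venous receptor, Efnb2 to Ephb4, was compared after the values had been seen. Its log2 value within arrays was 2.74 and 2.95 on the positive arrays and 2.69 and 2.82 on the negative arrays, which overlapped (difference 0.09, exact two-sided permutation p = 0.667). The size of such a ratio has no meaning across probe sets, and only its difference between arrays is read. With 2 arrays against 2 the smallest p of that test is 0.333.

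The genes whose profile over the 4 arrays was closest to that of Efnb2, among 10179 genes with a mean of at least 6, were 5530601H04Rik, Smim11 and Ppfibp2, at Euclidean distances of 0.020, 0.021 and 0.023 log2 units after each gene's own mean was taken away. For Ephb4 they were Chmp2a, Rpl7l1 and Cox6b1, at 0.010, 0.012 and 0.015. With 4 arrays many genes have a similar profile, and this is a description only.

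The A-class family, whose ligands are held by a lipid anchor, was the nearest comparison. All 14 of its measured genes had a difference below 0, against 4 of 7 in the B class and 8561 of all 18193 genes. The class medians were -0.29 and -0.37, and the latter is the value of the dim Ephb6, whose size is uncertain. The difference between the classes was not tested. Of these 14 genes, 8 were lower without overlapping arrays, as were 17.0% of all genes, and 6 overlapped. The receptors Epha3, Epha5, Epha6, Epha8 and Epha10 had means under 6 and differences from -0.12 to -0.01, so their signs carry little. At an unadjusted p under 0.05, 7 of 14 A-class genes were lower and 0 higher, beside 4.64% and 7.07% of all genes. Epha4, a receptor that also binds ephrin-B ligands, had values of 7.56 and 7.41 on the positive arrays and 8.62 and 8.55 on the negative arrays, without overlap. Its difference of -1.10 (SE 0.10, limma adjusted p = 0.067) exceeded in size that of every measured B-class gene on its kept probe set. The ligands Efna1, Efna3, Efna4 and Efna5 differed by -0.70, -1.33, -0.77 and -0.34, and the receptors Epha1 and Epha7 by -1.29 and -0.73.

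Proteins that carry the signal inside the cell were read from lists of binding partners. No partner passed an adjusted p of 0.05 in limma. Of 19 partners of the Eph receptor tail, 17 had a difference above 0, where 9630 of all 18193 genes did. Their median was 0.12. At an unadjusted p under 0.05, 3 were higher and 0 lower, where 7.07% of all genes were higher and 4.64% lower. Vav3, an exchange factor that is recruited to active Eph receptors, had values of 9.71 and 9.66 on the positive arrays and 8.61 and 8.59 on the negative arrays. The groups were well apart, with a difference of 1.08 (SE 0.09, limma adjusted p = 0.067). Yes1, a Src-family kinase, differed by 0.60 (SE 0.09) and Itsn2, a scaffold with exchange activity for Cdc42, by 0.55 (SE 0.12).

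Of 13 partners of the ephrin-B tail, 9 had a difference above 0, where 9630 of all 18193 genes did. Their median was 0.11. At an unadjusted p under 0.05, 1 was higher and 2 lower, beside 7.07% and 4.64% of all genes. The higher one was Tiam1, an exchange factor for Rac, with values of 11.58 and 11.52 on the positive arrays against 10.93 and 10.81 on the negative arrays, a difference of 0.68 (SE 0.10, limma adjusted p = 0.097). The lower ones were the phosphatase gene Ptpn13 at -0.45 (SE 0.12) and the scaffold gene Grip2 at -0.33 (SE 0.09). Of the 4 proteases read that cut Eph or ephrin proteins, Adam10, a metalloprotease that sheds ephrins, was the only one at an unadjusted p under 0.05, with a difference of 0.38 (SE 0.09, limma adjusted p = 0.210).

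**Figure D4:**
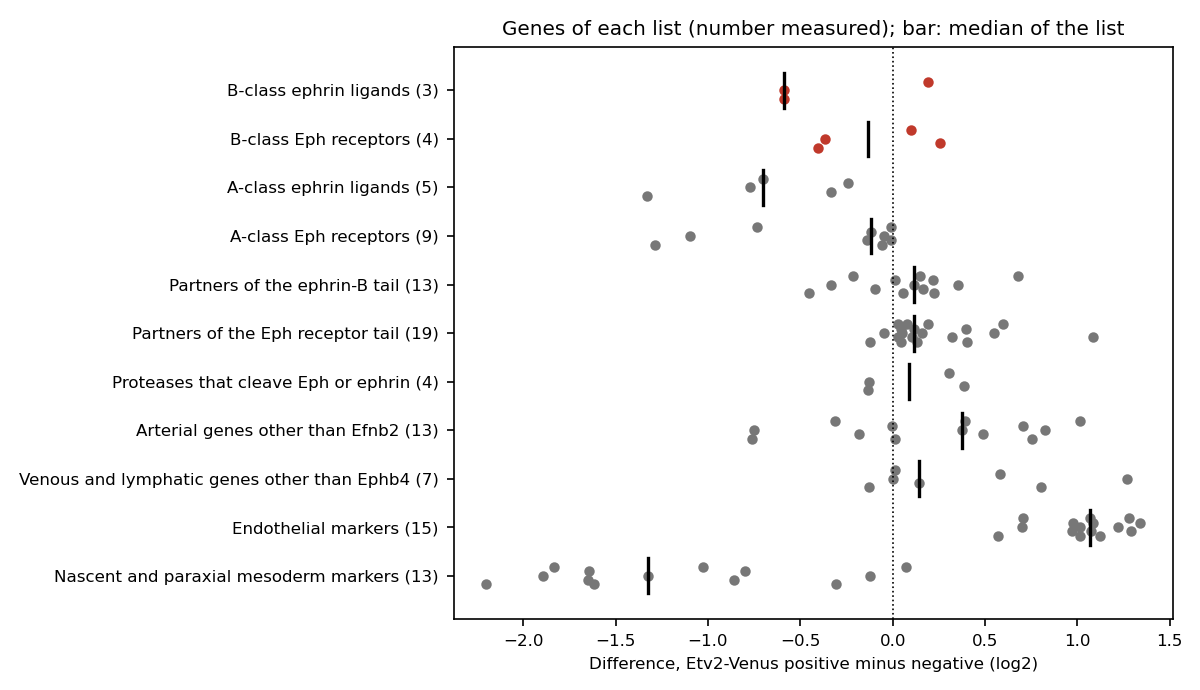
Differences in log2 units (horizontal axis) of the measured genes of each list, 1 point per gene, with a bar at the list's median. B-class genes are red and spread on both sides of 0, all 14 A-class genes lie below 0, all 15 endothelial markers above it, and 12 of 13 nascent and paraxial mesoderm markers below it.

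Arterial and venous genes were read beside Efnb2 and Ephb4. Of 13 arterial genes other than Efnb2, 6 were higher and 1 lower at an unadjusted p under 0.05, beside 7.07% and 4.64% of all genes. Their median difference was 0.38. The Notch ligand Dll4, the BMP receptor gene Acvrl1 and the Notch target Hey2 differed by 0.75, 0.82 and 0.71, beside 0.19 for Efnb2, and the Notch ligand Jag1 by -0.75. Dll4 and Acvrl1 had means under 6, so those sizes are uncertain. Of 7 venous and lymphatic genes other than Ephb4, 2 were higher and 0 lower at an unadjusted p under 0.05. These 2 were Flt4 (VEGF receptor of lymphatic endothelium) at 1.27 and the neuropilin gene Nrp2 at 0.58. The median difference of the 7 was 0.14, and 3 of them, Nr2f2 included, had means under 6. The venous regulator Nr2f2, chosen after its value was seen, had means of 5.97 in positive and 5.96 in negative cells.

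Markers of cell types differed with the sort, and their part in the values above was not tested. For the counts below, 7.07% of all genes were higher and 4.64% lower at an unadjusted p under 0.05. These lists, like the others here, were chosen with earlier results of these data known, so their counts describe and do not test. Etv2 itself had values of 12.64 and 12.41 on the positive arrays and 12.03 and 11.87 on the negative arrays. Its difference was 0.57 (SE 0.13), and Kdr differed by 0.13 (SE 0.12). On its kept probe set the Etv2 signal was thus high in both groups, so these arrays do not set Etv2 signal present against absent. The source of that signal in the negative cells was not tested. All 15 endothelial markers were higher at an unadjusted p under 0.05, with a median of 1.07 and a summed signal (linear values added, in log2 units, and set mostly by the brightest probe sets) of 13.01 to 13.03 in positive and 11.99 to 12.07 in negative cells; only Pecam1 among them had a mean under 6. The smallest p-values belonged to Rasip1, Sox18 and Mmrn2, with differences of 1.29, 1.22 and 1.28. Nascent and paraxial mesoderm markers had a median of -1.33, 9 of 13 were lower at an unadjusted p under 0.05, and their summed signal was 12.62 to 12.96 in positive and 13.87 to 14.21 in negative cells. The smallest p-values belonged to Pcdh8, Mesp1 and Dll3, with differences of -2.20, -1.64 and -1.83, and Tbx6, Msgn1 and Meox1 had means under 6. OP9 stroma and fibroblast markers had a median of -0.28, with 0 higher and 3 of 12 lower (Cxcl12, Vcam1 and Col1a1). Their summed signals overlapped, at 10.67 to 11.38 in positive and 11.06 to 11.65 in negative cells. Of these 12, 7 had means under 6, Vcam1 and Col1a1 among them. Blood cell markers had a median of 0.27, with 3 of 9 higher (Plek, Itga2b and Spi1) and 1 lower (Ptprc), and summed signals of 10.12 to 10.29 in positive and 9.70 to 9.92 in negative cells, where Ptprc, Gata1, Hbb-bh1 and Hba-x had means under 6. Neural markers had a median of 0.13, 0 of 6 at an unadjusted p under 0.05 and overlapping summed signals of 9.12 to 9.42 in positive and 8.98 to 9.38 in negative cells; Sox1, Pax6 and Neurog2 had means under 6.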

How the data were processed

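Total RNA of sorted cells was labelled with biotin and hybridised to Affymetrix arrays, per the labels' protocols. Per the submitters' processing notes, the authors used RMA and R 2.8.0. The deposited values per probe set were taken as log2. RMA adjusts for background, equalises the arrays' distributions and combines the probes of a set, which removes shifts common to all genes and compresses differences of dim probe sets. That the base is 2 was read off the range of 2.16 to 14.93. No detection calls or scanner files were used here.

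Groups came from the sample titles. Symbols came from the platform annotation, and 34945 of 45101 probe sets had 1 symbol, 932 several, and 9160 were not listed; 64 were controls. Matching Entrez identifiers to RefSeq (GRCm38.p6) changed 0 symbols. The probe set with the highest mean stood for each of 18193 genes.

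A limma 3.58.1 model (lmFit, eBayes; R 4.3.3) with group as its single term left 2 residual degrees of freedom per gene, and the prior added 2.68. Its two-sided tests took Benjamini-Hochberg adjustment over all genes and a threshold of 0.05. The step was also run on simulated data with independent noise for each array. Same-numbered arrays deviated together in the real data, so that run does not show how the step does here. Values of single probe sets come from the same fit over all 34945 probe sets. The members and gene lists were chosen with earlier results of these data known. The text names all members with every probe set, up to 3 genes per direction with the smallest p of each other list at an unadjusted p under 0.05, all A-class genes at that level, the genes of the sort, and the 3 genes nearest in profile to Efnb2 and Ephb4. The alternatives are named with their effect in the closing section. Ephb2 was not analysed here. Figures were drawn with matplotlib 3.10.9.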

Additional observations from a re-analysis of the deposited data

How the results depend on the processing

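The number of arrays limits every value. The 7 measured B-class genes were refitted under 11 alternatives. These included averaging the probe sets of a gene, fitting every probe set and a floor of 6 on the mean (which leaves out Ephb6). Further ones were a robust fit with a mean-variance trend and a block for the array number. The last were a second quantile normalization, median-centred arrays and omission of each array in turn. Fitting every probe set was read on the kept ones. There, and with the floor, the robust fit and the block, differences equalled the main ones, so direction could not change. A dim Efnb2 probe set differed by -0.03, while the others of that gene were above 0. Averaging changed only Efnb1 and Efnb2. Omitting 1 array could not reverse a gene whose groups did not overlap, which leaves Ephb1 and Ephb4. Both kept their direction under each omission. With averaging, the second normalization and median-centring, all 7 genes kept theirs. For Efnb1 averaging could not have changed it, as each of its probe sets was below 0. Wherever all arrays were used, each adjusted p stayed above 0.05, and the count of B-class genes called was 0. Over all genes limma called 79 (66 higher, 13 lower) among those with a mean of at least 6. It called 112 (81 higher, 31 lower) with the trend, against 0 in the main comparison. The first fit covered fewer genes and was refitted on them, and the cause of neither count was tested. The lowest adjusted p of a member was 0.063, for Efnb1 among genes with a mean of at least 6. Leaving out 1 array gave -0.61 to -0.57 for Efnb1, -0.70 to -0.47 for Efnb3, -0.52 to -0.29 for Ephb3, 0.10 to 0.28 for Efnb2, 0.02 to 0.18 for Ephb4, 0.04 to 0.47 for Ephb1 and -0.63 to -0.10 for Ephb6. Same-numbered arrays deviated together across genes (correlation 0.54), but the labels do not say that the number marks a shared culture. With the array number as a replicate block 0 genes were called, and the adjusted p was 0.095 for Efnb1, 0.105 for Efnb3, 0.147 for Ephb3 and 0.336 for Efnb2. Small differences of dim probe sets, as for Ephb6, cannot be sized at this signal over background.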
